A study of Mus musculus with 6 samples.

Results

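The genes of the mitochondrial respiratory chain and ATP synthase were examined in antiviral CD4+ T cells sorted by surface CD25. Members were the mouse protein-coding genes whose symbols start with Ndufa, Ndufb, Ndufc, Ndufs, Ndufv, Sdha to Sdhd, Uqcr, Cox4 to Cox8 or Atp5, together with the 13 protein-coding genes of mitochondrial DNA. The rule used symbols only. It matched 111 annotated genes, 98 of them nuclear and 13 mitochondrial. Of these, 99 had a row among the 15445 genes with counts (91 nuclear and 8 mitochondrial), and 96 passed the filter on low counts (88 nuclear and 8 mitochondrial). Because symbols define the set, it also holds 12 assembly factors (Ndufaf and Sdhaf genes). They are pooled with the subunits in counts and sums of nuclear members and left out of the counts by complex.

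The cells were monoclonal transgenic CD4+ T cells from the spleen of C57BL/6 mice, taken at day 5 after infection with LCMV, lymphocytic choriomeningitis virus. Flow cytometry with stains for CD4, Thy1.1 (a congenic form of the T cell antigen Thy1) and CD25, a chain of the receptor for interleukin-2, separated them. The 3 CD25-high and 3 CD25-low libraries, all from infected mice, are called CD25-high 1 to 3 and CD25-low 1 to 3. Nothing in the labels ties a library to an animal, so the p-values describe how far these libraries spread, and part of that spread may be technical.

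The respiratory chain sits in the inner mitochondrial membrane. Complexes I and II pass electrons from NADH and succinate to ubiquinone, complex III passes them on to cytochrome c, and complex IV reduces oxygen, while complexes I, III and IV pump protons that drive ATP synthase (complex V). Mitochondrial DNA is transcribed as long precursors and encodes core subunits of complexes I, III, IV and V, whereas all subunits of complex II and the remaining subunits of the others are encoded in the nucleus and imported. T cells increase mitochondrial mass and respiration after activation.

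Total counts ranged from 16787233 to 23567066 per library. Il2ra, which encodes CD25, had 1536, 432 and 666 CPM (read counts scaled to a common library size with TMM factors) in CD25-high 1 to 3 and 20.7, 29.4 and 35.7 CPM in the CD25-low libraries. All 6 T cell markers checked had a row, and their summed level was 2184 to 2432 CPM in CD25-high and 2194 to 3066 CPM in CD25-low libraries. Most of that sum came from Cd3e and Cd4, while Cd3d (log2 fold change -0.95, edgeR adjusted p 0.204, and 0.0134 once library numbers entered the fit as a block) and Cd3g (-0.82, 0.279 and 0.0135) were lower in every CD25-high library. Thy1 had 97.8, 270 and 274 CPM in CD25-high 1 to 3 and 54.0, 206 and 207 CPM in CD25-low 1 to 3. Unlike Cd3d and Cd3g, it was higher in CD25-high in all 3 numbered pairs, and edgeR called it in neither fit. In both groups the library numbered 1 had the lowest Thy1 level. Whether this bears on the results for those libraries was not tested. Summed levels of other markers were 33.2 to 104.8 and 24.01 to 57.2 CPM for myeloid cells (7 of 8 genes had a row, Adgre1 did not), 12.8 to 26.5 and 4.70 to 8.81 CPM for CD8 T and NK cells (3 of 5, without Cd8a and Ncr1), and 2.27 to 2.99 and 2.07 to 4.10 CPM for erythroid cells and platelets (2 of 7, without the globin genes and Pf4). Among these markers, Itgam (log2 fold change 1.42) and Klrk1 (1.79) were called with that block as higher in CD25-high, at edgeR adjusted p-values of 0.0013 and 0.035, against 0.433 and 0.118 in the edgeR fit by group alone. DESeq2 by group alone called Klrk1 (adjusted p 0.00314) but not Itgam (0.533). Of the myeloid and the CD8 T and NK lists, Csf1r, Fcer1g and Cd8b1 also had higher means in CD25-high. Means of Lyz2, Cd68, Tyrobp, Cst3 and Klrb1c were lower there (0.0355 against 1.03 CPM for Klrb1c). Stress genes summed to 28.2 to 29.1 CPM in CD25-high and 18.4 to 27.8 CPM in CD25-low libraries. The part of these cells or of stress in the results below was not tested, and in bulk RNA fewer cells of a type and less RNA per cell cannot be told apart.

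The 8 mitochondrial encoded subunits with a row were the most abundant members, with the exception of mt-Nd3. Levels are compared between genes as mean CPM per kb of exon over the 6 libraries. This length is the union of all annotated exons and can exceed the longest coding transcript (1381 against 610 bases for Ndufa4). Ranks between genes therefore hold for this length only. Mt-Co1, the catalytic core of complex IV, stood at 6530, mt-Cytb, the cytochrome b of complex III, at 5169, and mt-Nd1, which forms part of the ubiquinone channel of complex I, at 4416 CPM per kb. Mt-Nd5 followed with 2797, mt-Nd2 with 1533, mt-Nd4 with 1385 and mt-Nd6, the only protein-coding gene on the other strand of mitochondrial DNA, with 952 CPM per kb. Mt-Nd3 stood at 11.6 CPM per kb, below the median of 14.6 CPM per kb of the 88 tested nuclear members. The nuclear members spanned 0.172 (Atp5l) to 382 CPM per kb (Atp5b).

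No row in the counts used here belonged to mt-Co2, mt-Atp8, mt-Atp6, mt-Co3 or mt-Nd4l. These genes lie in 1 stretch of mitochondrial DNA (mm10 chromosome M, from 7013, the start of mt-Co2, to 10173, the end of mt-Nd4l), and the only other protein-coding gene that lies wholly inside it is mt-Nd3, from 9459 to 9806. Near-identical annotated copies of these genes, mt-Atp8 apart, lie on nuclear chromosome 1, where GENCODE annotates unprocessed pseudogenes on the minus strand. For mt-Atp8, only 43 of 204 bases matched an annotated transcript of another gene. The search covered annotated transcripts only, so a copy of mt-Atp8 outside them would be missed. On chromosome M, mt-Atp8 starts between mt-Co2 and mt-Atp6, and the bases between their copies on chromosome 1 were not searched. Gm28661 matches mt-Co2 over 681 bases, Gm10925 matches mt-Atp6 over 678 bases, Gm28437 matches mt-Co3 over 783 bases and Gm10222 matches mt-Nd4l over 294 bases, each at 100% identity. Gm28438 matches mt-Nd3 over 345 bases with 1 mismatch, and Gm28439 matches 876 of the 1378 bases of mt-Nd4. None of these 6 pseudogenes had a row. Of more diverged copies on chromosome 2, Gm13340 (97.61% identity with mt-Co1 over 1545 bases) and Gm13341 (95.91% with mt-Co2 over 684 bases) had one. The first 61 bases of mt-Nd3 (chrM:9459-9519, plus strand) are set beside those of its copy Gm28438 (chr1:24613059-24613119, minus strand) to show how close the 2 loci are, with the base that differs in capitals. The difference is T3C, counted from 1 at the 5′ end, with the base of mt-Nd3 first.
mt-Nd3: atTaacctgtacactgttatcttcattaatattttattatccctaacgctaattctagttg
Gm28438: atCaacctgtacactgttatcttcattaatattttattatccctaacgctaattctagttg
Over the 345 bases compared, this was the only mismatch.

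Each mitochondrial gene was read in windows of 50 bases, and a window was counted when the same letters occurred on either strand of an annotated transcript of another gene. That was the case for 100% of the windows of mt-Co2, 99.9% of mt-Co3, 99.5% of mt-Atp6, 98.8% of mt-Nd4l and 98.0% of mt-Nd3. The share was 62.2% for mt-Nd4 and 51.1% for mt-Co1, 8.2% for mt-Nd2, 7.6% for mt-Nd5 and 0% for mt-Nd1, mt-Nd6 and mt-Cytb. Of the 5 genes with at least 98.0% of their windows found elsewhere, 4 had no row and mt-Nd3 was the lowest of the genes with a row, while mt-Atp8, the fifth gene with no row, had 0% of its windows found in other annotated transcripts. Sequence outside annotated transcripts was not searched. How reads with several matches were counted is not given in the sources used here, so levels of mt-Co1, mt-Nd3 and mt-Nd4, and the summed mitochondrial level, hold only what that counting kept.

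**Figure D1:**
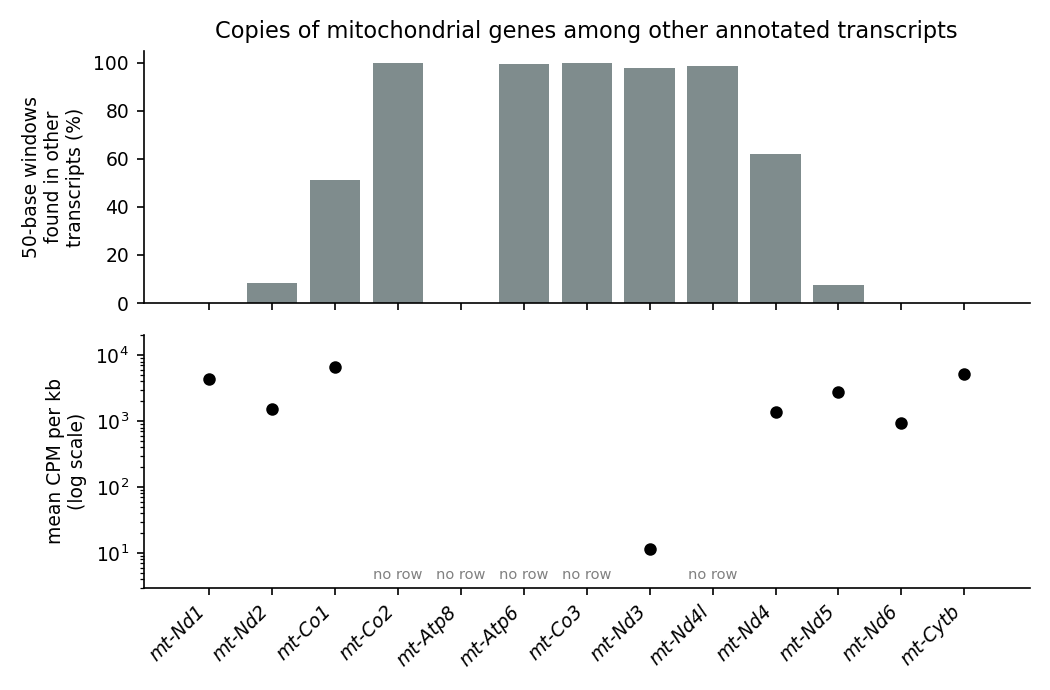
Upper panel: percent of the 50-base windows of each mitochondrial protein-coding gene that occur in annotated transcripts of other genes. Lower panel: mean CPM per kb over the 6 libraries (log scale), with genes in the order of mitochondrial DNA and "no row" where the counts hold none. Between mt-Co2 and mt-Nd4l the shares reach 98.0% to 100% except at mt-Atp8 (0%), and mt-Nd3, at 11.6 CPM per kb, is the only gene there with a row.

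All 8 mitochondrial encoded subunits had a higher mean level in CD25-high than in CD25-low libraries, but none of these differences passed an adjusted p of 0.05 (was called) in edgeR when the replicate numbers were left aside, as 0.655% of the 12987 tested genes were. Mt-Nd1 (ENSMUSG00000064341, chrM:2751-3707) had 8627, 3982 and 3395 CPM in CD25-high 1 to 3 and 4110, 2219 and 3023 CPM in CD25-low 1 to 3. CD25-high 1 stood above every other library, and the groups overlapped because CD25-low 1 lay above CD25-high 2 and 3. The log2 fold change (CD25-high over CD25-low) of mt-Nd1 was 0.78 ± 0.35 (SE, n = 3 per group), with an edgeR adjusted p of 0.453. Mt-Nd2 (ENSMUSG00000064345, chrM:3914-4951), a proton-pumping subunit of complex I, had 3230, 1450 and 1272 CPM in CD25-high and 1665, 851 and 1081 CPM in CD25-low libraries. Its pattern over the libraries was that of mt-Nd1, with a log2 fold change of 0.73 ± 0.36 and an edgeR adjusted p of 0.508.

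The remaining mitochondrial encoded subunits of complex I differed less. Mt-Nd4 had 2957, 1892 and 1659 CPM in CD25-high and 2084, 1237 and 1622 CPM in CD25-low libraries (log2 fold change 0.40 ± 0.26). Mt-Nd5 had 7498, 5102 and 4506 CPM against 5294, 3764 and 4447 CPM (0.34 ± 0.23), and both encode proton-pumping subunits of the membrane arm. In each of these genes CD25-high 1 was the highest and CD25-low 2 the lowest library. Mt-Nd3 had 7.09, 3.30 and 4.63 CPM against 3.72, 2.55 and 2.90 CPM (0.71 ± 0.47), and mt-Nd6 had 537, 524 and 488 CPM against 485, 440 and 491 CPM (0.13 ± 0.17). Mt-Nd6 varied least among these genes.

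In complexes III and IV the gap between CD25-high 1 and the rest was seen in one gene and not in the other. Mt-Cytb (ENSMUSG00000064370, chrM:14145-15288) had 9763, 5713 and 4895 CPM in CD25-high and 6185, 3873 and 5050 CPM in CD25-low libraries, a log2 fold change of 0.43 ± 0.28. Mt-Co1 (ENSMUSG00000064351, chrM:5328-6872) had 10945, 11194 and 9694 CPM against 9958, 7889 and 10858 CPM, a log2 fold change of 0.15 ± 0.19 with a 95% interval of -0.26 to 0.56. The lowest edgeR adjusted p among the 8 genes was that of mt-Nd1. The ribosomal RNAs of the same genome differed by -0.14 ± 0.18 (mt-Rnr1) and 0.00 ± 0.18 (mt-Rnr2) on the log2 scale.

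**Figure D2:**
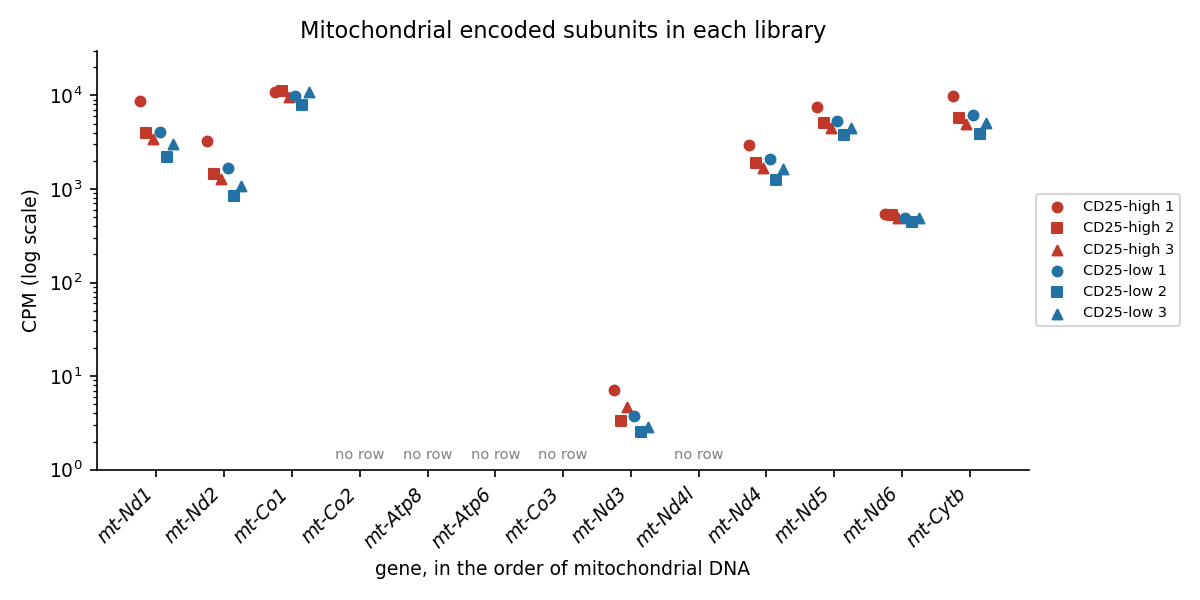
CPM (log scale) of each mitochondrial protein-coding gene in the 3 CD25-high (red) and 3 CD25-low (blue) libraries, with circles, squares and triangles for replicate numbers 1, 2 and 3, and genes in the order of mitochondrial DNA. CD25-high 1 lies above the other libraries in mt-Nd1 (8627 CPM) and mt-Nd2 (3230 CPM), while the libraries of mt-Nd6 lie between 440 and 537 CPM.

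None of the 88 nuclear members was called in edgeR either. At an unadjusted p under 0.05, edgeR again found 0 of the 96 members, against 11.1% of all tested genes, and DESeq2 (2.7% of 13931 genes) and limma voom called 0 members. A p that misses the threshold does not show that levels were equal. The 95% interval of the log2 fold change stayed within a range of -1 to 1 for 58 of the 88 nuclear members (65.91%) and 4 of the 8 mitochondrial members, compared with 37.51% of all tested genes.

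The labels number the libraries 1 to 3 in each group, and a fit with that number as a block called 2 members. Both were mitochondrial and higher in CD25-high. Mt-Nd1 had a log2 fold change of 0.69 with the replicate block and an edgeR adjusted p of 0.027, and it was higher in CD25-high in 3 of 3 numbered pairs. Mt-Nd2 had 0.65 and an adjusted p of 0.0286, likewise in 3 of 3 pairs. With the block, 4.63% of the tested genes were called, 1.73% as higher. No nuclear member was called with the block, and the lowest adjusted p was 0.182 (Atp5d). The 2 calls rested on the libraries numbered 1: without them the block fit called 0 mitochondrial members, with 0.50 and an adjusted p of 0.205 for mt-Nd1 and 0.50 and 0.174 for mt-Nd2. Without the libraries numbered 2 both remained called (adjusted p 0.00762 and 0.0351), and without those numbered 3 mt-Cytb was called as well (0.000171, 0.00203 and 0.019 for mt-Nd1, mt-Nd2 and mt-Cytb in edgeR). Without CD25-high 1 alone and with no block, the log2 fold change of mt-Nd1 was 0.24 and that of mt-Nd2 0.18.

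As a group, nuclear encoded members did not share the direction of the mitochondrial ones. Of the 88 tested, 33 had a log2 fold change above 0 and 55 below, with a median of -0.09, beside 0.41 for the 8 mitochondrial members and 0.01 for all tested genes. Without the 12 assembly factors, 27 of 76 nuclear members lay above 0 and 49 below (median -0.09). The assembly factors had 6 above 0 and 6 below (median 0.01). The mitochondrial median was 0.12 without CD25-high 1 and reached 0.60 with other libraries left out in turn. The groups did not overlap for 4 nuclear members. Ndufb8 and Uqcrc1 were higher in every CD25-high library, as were 7.41% of all tested genes, and Ndufa1 and Cox7a2l were lower, as were 9.54%. In all 3 numbered pairs, 7 of 88 nuclear and 5 of 8 mitochondrial members were higher in CD25-high (20.4% of all tested genes), and 6 nuclear and 0 mitochondrial members were lower (20.3%).

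**Figure D3:**
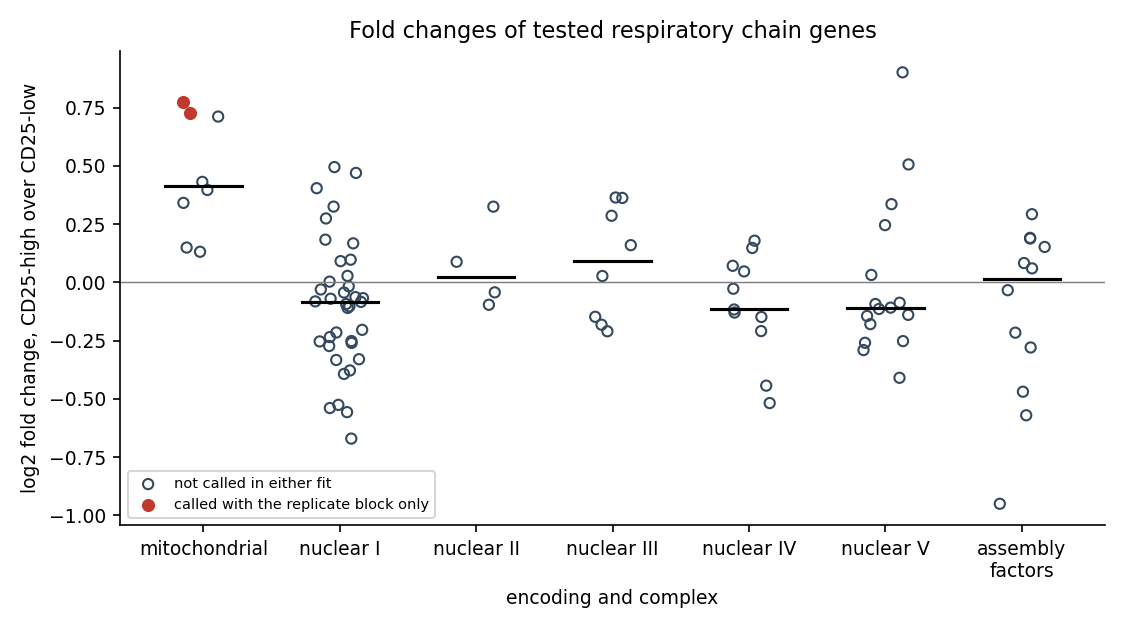
Log2 fold change (CD25-high over CD25-low, edgeR without the replicate block) of the 96 tested members by encoding and complex, with 1 point per gene and a bar at the median. The mitochondrial genes lie between 0.13 and 0.78, and the filled points are mt-Nd1 and mt-Nd2, the 2 genes called with the block. Nuclear medians lie between -0.12 (complex IV) and 0.09 (complex III).

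Complex I, the NADH dehydrogenase, contributed 37 tested nuclear subunits with a median log2 fold change of -0.08, 11 above 0 and 26 below. Ndufa1 (ENSMUSG00000016427, mm10 chrX:37187588-37191163), an accessory subunit of the membrane arm, had 7.88, 9.37 and 8.74 CPM in CD25-high and 14.98, 11.03 and 15.4 CPM in CD25-low libraries. Every CD25-high library lay below every CD25-low library, and the log2 fold change was -0.67 ± 0.30 with an edgeR adjusted p of 0.455. Ndufb8 (ENSMUSG00000025204, chr19:44548572-44555440), another accessory subunit of the membrane arm, had 28.3, 24.2 and 27.98 CPM against 17.9, 23.2 and 23.1 CPM (0.33 ± 0.24, adjusted p 0.682), with no overlap but with neighbouring values of 24.2 and 23.2 CPM. It shares 134 exonic bases on the same strand with Gm20538, and reads there could belong to either gene. Ndufs7, a core subunit with an iron-sulfur cluster, had 14.2, 12.7 and 21.0 CPM against 12.5, 7.45 and 14.7 CPM, and its groups overlapped (0.47 ± 0.35).

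The most abundant nuclear subunits of complex I per length were Ndufb9, an accessory subunit, at 41.5 CPM per kb and Ndufa4, which the symbol places here although its protein is now known as a subunit of complex IV, at a like level. Ndufb9 had 27.0, 43.4 and 46.6 CPM in CD25-high and 48.9, 45.3 and 45.5 CPM in CD25-low libraries (-0.25 ± 0.25), with CD25-high 1 the lowest. Ndufa4 had 43.8, 54.8 and 60.97 CPM against 86.3, 39.2 and 58.5 CPM (-0.20 ± 0.29), so its highest and its lowest library were both CD25-low. Ndufa4l2, the paralog of Ndufa4 known for its induction in hypoxia, had no row in the counts used here. Among the assembly factors, Ndufaf6 had 5.10, 3.09 and 2.59 CPM against 11.4, 5.45 and 4.01 CPM (-0.95 ± 0.51, adjusted p 0.548). It was lower in CD25-high in each numbered pair, but its groups overlapped.

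Complex II, succinate dehydrogenase, is encoded in the nucleus alone. Its 4 subunits had a median log2 fold change of 0.02, and all 4 of their 95% intervals stayed within -1 to 1. Sdha, the catalytic flavoprotein, had 150, 270 and 276 CPM in CD25-high and 292, 228 and 225 CPM in CD25-low libraries (-0.10 ± 0.25). Sdhb, the iron-sulfur subunit, had 19.4, 33.8 and 42.1 CPM against 33.5, 28.8 and 35.8 CPM (-0.04 ± 0.30). In both genes CD25-high 1 was the lowest of the 6 libraries. Of the membrane anchors, Sdhc had 31.6, 37.9 and 62.0 CPM against 36.1, 39.4 and 48.2 CPM (0.09 ± 0.28). Sdhd, the most abundant subunit at 63.7 CPM per kb, had 61.2, 97.0 and 103 CPM against 68.5, 66.0 and 74.4 CPM (0.32 ± 0.23, adjusted p 0.669). CD25-high 2 and 3 lay above all CD25-low libraries for Sdhd and CD25-high 1 below them. The assembly factors Sdhaf2, which attaches the flavin to Sdha, Sdhaf1 and Sdhaf4 had log2 fold changes of 0.19 ± 0.24, -0.57 ± 0.67 and -0.47 ± 0.63, the latter pair at 1.02 to 5.63 CPM. Sdhaf1 shares 1733 exonic bases with E130208F15Rik.

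Complex III, the cytochrome bc1 complex, had 8 tested nuclear members with a median of 0.09, 5 above 0 and 3 below. Uqcrc1 (ENSMUSG00000025651, chr9:108936633-108949623), a core protein, had 21.6, 22.6 and 27.2 CPM in CD25-high and 17.3, 16.9 and 21.2 CPM in CD25-low libraries. Its lowest CD25-high library lay just above its highest CD25-low library, and the log2 fold change was 0.36 ± 0.25 (adjusted p 0.654). Uqcrq, a small subunit, had 6.63, 8.20 and 12.4 CPM against 7, 6.30 and 7.86 CPM (0.36 ± 0.37). Below 0 were Uqcr10, a small subunit and the most abundant nuclear one of this complex at 53.4 CPM per kb, with 22.2, 32.3 and 32.2 CPM against 36.4, 22.9 and 41.0 CPM (-0.21 ± 0.28), and Uqcrh, the hinge protein of cytochrome c1, with 32.03, 55.8 and 53.5 CPM against 59.6, 44.8 and 55.9 CPM (-0.18 ± 0.26). CD25-high 1 was the lowest library for both. The union of exons is 1237 bases for Uqcrh and 584 for Uqcr10, and the longest coding transcripts are 547 and 434 bases. Which of the 2 is more abundant depends on the length used.

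Complex IV, cytochrome c oxidase, had 11 tested nuclear members with a median of -0.12, 4 above 0 and 7 below. Cox7a2l (ENSMUSG00000024248, chr17:83501918-83517330), whose protein has been studied in supercomplexes of complexes III and IV, had 13.9, 25.8 and 26.3 CPM in CD25-high and 34.2, 29.3 and 31.2 CPM in CD25-low libraries. All CD25-high libraries lay below all CD25-low libraries (-0.52 ± 0.29, edgeR adjusted p 0.557). Cox7c had 14.3, 14.4 and 16.9 CPM against 16.7, 23.97 and 21.3 CPM (-0.44 ± 0.27), and CD25-high 3 overlapped with CD25-low 1 by a small margin. On the other side were Cox5a with 0.18 ± 0.27 and Cox7a2 with 0.15 ± 0.31, and in both CD25-low 2 was the lowest library (30.2 CPM for Cox5a, 17.9 CPM for Cox7a2). Cox6a1 was the most abundant nuclear subunit per length at 70.9 CPM per kb, with 28.5, 60.6 and 58.8 CPM in CD25-high and 53.4, 41.5 and 55.9 CPM in CD25-low libraries (-0.03 ± 0.30).

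Several subunits of complex IV exist as a ubiquitous and a tissue-restricted isoform, and nearly all reads lay in the ubiquitous one. Cox4i1 had 36.1, 66.4 and 92.0 CPM against 53.8, 57.4 and 77.1 CPM (0.05 ± 0.32), Cox6b1 had 8.11, 20.7 and 23.3 CPM against 18.7, 17.4 and 24.1 CPM (-0.21 ± 0.38), Cox7b had -0.13 ± 0.23 and Cox8a 0.07 ± 0.26 as log2 fold changes. Their partners Cox4i2, Cox6a2, Cox7a1, Cox7b2 and Cox8c had no row. Cox6b2 had 0, 19 and 6 reads in CD25-high and 0, 5 and 0 in CD25-low libraries, and Cox8b had 0, 1 and 10 reads and 0, 1 and 0 reads. Both fell below the filter and were not tested.

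Complex V, the ATP synthase, had 16 tested nuclear members with a median of -0.11, 5 above 0 and 11 below. Atp5b (ENSMUSG00000025393, chr10:128083273-128090391), the catalytic beta subunit, was the most abundant nuclear member of all complexes, with 2039, 1561 and 1814 CPM in CD25-high and 1494, 1187 and 1609 CPM in CD25-low libraries. It was higher in CD25-high in each of the 3 numbered pairs, the groups overlapped at CD25-high 2 and CD25-low 3, and the log2 fold change was 0.34 ± 0.19 (edgeR adjusted p 0.574, and 0.186 with the replicate block). Its partner in the catalytic head, Atp5a1, had 420, 526 and 551 CPM against 699, 405 and 546 CPM (-0.14 ± 0.23), with CD25-low 1 the highest library. Per length, Atp5b stood at 382, Atp5a1 at 167, the gamma subunit Atp5c1 at 107 and Atp5g3 at 87.8 CPM per kb, although the proteins of the alpha and beta subunits assemble in equal number.

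Among the smaller parts of ATP synthase, Atp5d, the delta subunit of the central stalk, had 28.3, 31.4 and 51.6 CPM against 17.6, 20.0 and 40.7 CPM. Libraries numbered 3 were the highest in both groups, and every pair was higher in CD25-high (0.51 ± 0.36, adjusted p 0.667, and 0.182 with the block). Atp5d shares 68 exonic bases with Cbarp on the opposite strand. Atp5e, the epsilon subunit of the same stalk, had 13.5, 29.4 and 31.6 CPM against 46.1, 21.2 and 31.8 CPM (-0.41 ± 0.37), and Atp5k, a subunit of the membrane part, had 17.1, 21.2 and 25.9 CPM against 29.2, 23.8 and 23.5 CPM (-0.25 ± 0.26). The ring of c subunits is made from 3 genes that encode the same mature protein, and Atp5g3 supplied most of their reads, with 126 to 270 CPM beside 2.60 to 5.13 CPM for Atp5g1 and 3 to 11 reads for Atp5g2, which was not tested. The member with the highest log2 fold change, Atp5s, was chosen here after its values were seen and had 0.90 ± 0.71, from 6.63, 2.45 and 2.37 CPM against 0.71, 1.57 and 3.81 CPM.

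Copies in the genome touch nuclear members too. Over 50-base windows of the longest coding transcript, at least 50% were found in transcripts of other genes for 3 of the 91 nuclear members with a row, and under 10% for 63. Atp5l, subunit g of the membrane part, had 84.8% of its windows in 14 other genes, 12 of them pseudogenes, and was the lowest tested nuclear member at 0.851 to 1.37 CPM. Sdhaf1 had 69.0% and Atp5o 50.3%. The median level was 14.7 CPM per kb for the 63 members under 10% and 10.9 CPM per kb for the 25 members with 10% to 50%, and the median log2 fold changes of these classes were -0.08 and -0.10. These levels are a description, since exon length and copies differ between the classes.

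The libraries numbered 1 were where nuclear and mitochondrial members parted. Within pair 1, the median log2 difference (CD25-high minus CD25-low, pseudocount 0.5 CPM) was -0.49 for nuclear members, of which 15 of 88 were above 0, and 0.58 for mitochondrial members, of which 8 of 8 were above 0. In pair 2 both sets lay on the same side, with 0.17 (60 of 88) and 0.53 (8 of 8), and in pair 3 the medians were 0.14 (62 of 88) and 0.03 (5 of 8). The medians of all tested genes were 0.01, -0.01 and 0.01, with 6612, 6454 and 6567 of 12987 genes above 0. The 13 genes of the TCA cycle, which feeds complexes I and II, had 7, 9 and 7 members above 0 in pairs 1, 2 and 3.

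**Figure D4:**
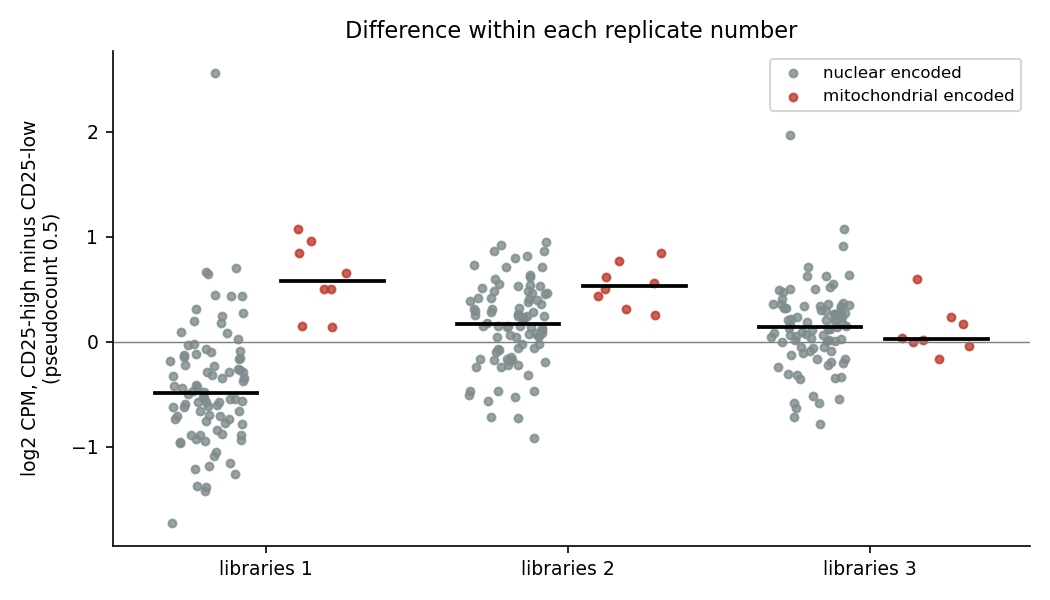
Difference in log2 CPM (CD25-high minus CD25-low, pseudocount 0.5) within each replicate number, 1 point per tested member and a bar at the median, grey for the 88 nuclear and red for the 8 mitochondrial encoded genes. Nuclear members lie mostly below 0 in libraries 1 (median -0.49) and mostly above 0 in libraries 2 and 3 (0.17 and 0.14), while mitochondrial members are all above 0 in libraries 1 and 2.

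For nuclear members both libraries of pair 1 took part in this split, whereas mitochondrial members stood apart in CD25-high 1. Median deviations from the mean of the 6 libraries (log2 CPM) in CD25-high 1 and CD25-low 1 were -0.23 and 0.24 for nuclear members. For mitochondrial members they were 0.73 and 0.09. CD25-high 1 was below both other CD25-high libraries for 57 of 88 nuclear members and above both for 23, and it was above both for 7 of 8 mitochondrial members. CD25-low 1 was above both other CD25-low libraries for 48 of 88 nuclear members and below both for 14, and it was above both for 6 of 8 mitochondrial members. By complex and without assembly factors, 0 of the 4 nuclear members of complex II and 0 of 11 of complex IV were above 0 in pair 1. The counts were 5 of 37 in complex I, 3 of 8 in complex III and 3 of 16 in complex V. Of the 12 assembly factors, 4 were above 0 in that pair. Without the libraries numbered 1, the median log2 fold change of nuclear members was 0.16 in the fit with the replicate block, against -0.08 with all pairs. Thus the side of 0 on which nuclear members lay depended on 1 pair, and for the mitochondrial members the median kept its sign there (0.29).

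Summed per library, mitochondrial encoded members took 4.08%, 3.01% and 2.74% of all counts in CD25-high 1 to 3 and 2.90%, 2.02% and 2.74% in CD25-low 1 to 3, that is 3.27% ± 0.71 against 2.55% ± 0.47 (SD, n = 3). The groups overlapped. Nuclear encoded members took 0.459%, 0.5002% and 0.585% against 0.549%, 0.407% and 0.515% (0.515% ± 0.064 against 0.490% ± 0.074). Atp5b alone made up 26.5% to 41.6% of the nuclear sum, and mitochondrial ribosomal RNA took 29.3% to 35.3% of all counts. With the ribosomal RNA left out of the total, the shares were 4.82% ± 1.20 and 3.84% ± 0.75 for mitochondrial and 0.753% and 0.737% for nuclear members.

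The ratio of mitochondrial to nuclear encoded member counts was 8.89, 6.01 and 4.68 in CD25-high 1 to 3 and 5.28, 4.97 and 5.33 in CD25-low 1 to 3. Its mean was 6.53 ± 2.15 against 5.19 ± 0.20 (SD, n = 3), with CD25-high libraries on both sides of the CD25-low range and with a spread that rested on CD25-high 1. Without that library the CD25-high mean was 5.34. The 8 mitochondrial encoded members with a row amounted to 11.996%, 9.36% and 9.35% of the mitochondrial ribosomal RNA in CD25-high libraries. The shares were 8.20%, 6.11% and 8.65% in CD25-low libraries, so that here the groups did not overlap. The nearest values were 9.35% (CD25-high 3) and 8.65% (CD25-low 3), and genes without a row add nothing to this sum. No test was made on these sums, since the members were chosen with results of these data known.

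**Figure D5:**
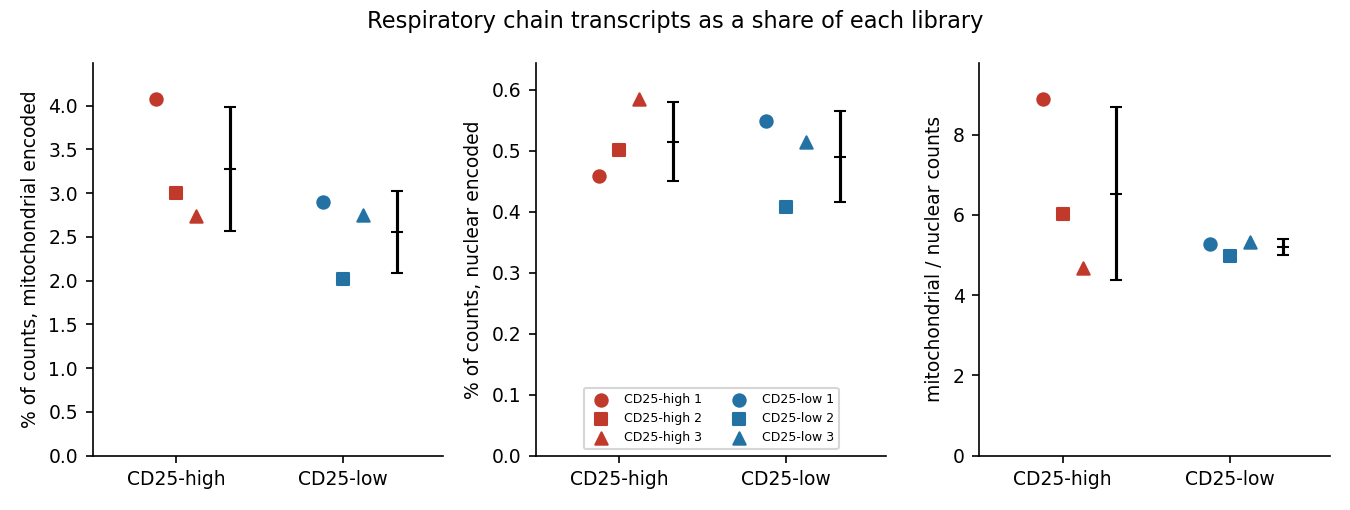
Left and middle: percent of each library's counts in mitochondrial and in nuclear encoded members. Right: ratio of the 2 sums. Points are libraries (symbols give the replicate number), and bars give mean ± SD of 3 libraries. The ratio spans 4.68 to 8.89 in CD25-high and 4.97 to 5.33 in CD25-low libraries.

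Promoters of the nuclear members were searched for the sites of 2 factors known to drive respiratory genes, because the nuclear members lie at separate loci. The sequences are RefSeq promoters (GRCm38.p6), read over 250 bases before the start of transcription, and 76 of the 91 nuclear members with a row matched. The NRF1 motif, the 10 bases in capitals below, reads the same on both strands and occurred in 5 of 76 (6.58%) and in 237 of 27025 genes (0.877%). The ETS motif CCGGAAG or its reverse complement CTTCCGG, bound by GABP among others, occurred in 16 of 76 (21.05%) and in 7.826% of all genes. The 27025 genes were not limited to protein-coding genes with a row in the counts, as the 76 members were. The shares are therefore over unlike sets, and whether they differ among genes with counts was not tested. These 2 motifs share no overlap as written. The NRF1 matches are in Atp5g2, Atp5k, Cox6a1, Ndufa11 and Ndufaf4, and 4 are printed 5′ to 3′ on the gene's strand, to show the motif (capitals) in its surroundings. They are Cox6a1 (chr5:115349086-115349145, minus), Atp5k (chr5:108434415-108434474, minus), Ndufa11 (chr17:56717677-56717736, plus) and Ndufaf4 (chr4:24897945-24898004, plus).
Cox6a1: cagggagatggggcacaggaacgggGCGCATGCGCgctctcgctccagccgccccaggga
Atp5k: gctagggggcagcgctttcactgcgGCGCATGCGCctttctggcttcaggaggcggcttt
Ndufa11: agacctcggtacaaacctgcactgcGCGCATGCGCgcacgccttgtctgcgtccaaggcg
Ndufaf4: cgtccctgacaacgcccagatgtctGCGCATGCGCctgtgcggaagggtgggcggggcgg
Their log2 fold changes were -0.03 ± 0.30, -0.25 ± 0.26, 0.49 ± 0.52 and 0.08, in this order, and none was called. A match describes letters and does not show binding, and members without these letters may still hold other sites.

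Other genes that build or regulate the chain were taken from lists by function, and none of their 99 tested members was called by edgeR without the block (7 at an unadjusted p under 0.05, and 0 by DESeq2). With the block 2 of 99 (2.02%) were called, both higher in CD25-high, beside 4.63% of all tested genes called in either direction and 1.73% as higher. Tbrg4 (FASTKD4), which stabilises mitochondrial messenger RNAs, had 71.5, 41.2 and 63.7 CPM in CD25-high and 40.2, 25.7 and 41.0 CPM in CD25-low libraries. CD25-high 2 lay just above the highest CD25-low library, and the log2 fold change was 0.72 ± 0.28 (edgeR adjusted p 0.365, and 0.0495 with the block). Leaving out any 1 pair ended this call (0.107 to 0.199). It was 1 of 19 tested genes of mitochondrial RNA processing, 13 of which were above 0 (median 0.29). Pprc1, a coactivator related to PGC-1 that acts with NRF1, had 107, 46.4 and 64.9 CPM against 46.3, 23.7 and 50.2 CPM (0.86 ± 0.36, adjusted p 0.41, and 0.0334 with the block). Its edgeR adjusted p with the block was 0.143, 0.112 and 0.00942 without pair 1, 2 and 3. It was 1 of 9 tested regulators, with 5 above 0 and a median of 0.05, and Ppargc1a, which encodes PGC-1 alpha, had no row.

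The remaining lists held no call in either fit of all libraries. Of 19 tested assembly factors of complex IV, 13 were above 0 (median 0.23). Among them Cox10, which takes part in making the heme of that complex, had 30.3, 29.2 and 33.3 CPM in CD25-high libraries. In CD25-low libraries it had 23.0, 13.9 and 16.2 CPM, with no overlap (0.81 ± 0.27, edgeR adjusted p 0.289, and 0.0786 with the block). Cox19, a copper-handling factor, had 1.06 ± 0.63, with 16.0 CPM in CD25-high 3 and 2.51 to 4.81 CPM in the other libraries. Among 16 tested genes of mitochondrial DNA transcription and replication (median -0.08), Mterf2 had 1.36, 5.06 and 2.99 CPM against 14.4, 8.98 and 4.80 CPM (-1.58 ± 0.57, adjusted p 0.331, with CD25-high 2 above CD25-low 3), and the nuclease Mgme1 had 15.8, 12.8 and 22.8 CPM against 10.9, 10.05 and 9.06 CPM (0.78 ± 0.31).

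The lists of assembly, carrier and TCA cycle genes gave the following values. Uqcc2, an assembly factor of complex III, had 3.68, 4.58 and 6.43 CPM against 2.52, 1.92 and 2.85 CPM (1.01 ± 0.47), with no overlap, and Ttc19 of the same list had -0.31 ± 0.23. For complex I assembly (9 tested, median 0.19) Foxred1 had -0.55 ± 0.31 and Ecsit 0.33 ± 0.36. The ADP/ATP carriers Slc25a4 and Slc25a5 had 0.33 ± 0.24 and 0.22 ± 0.24. Cyc1, the cytochrome c1 of complex III, had 77.1, 74.5 and 103 CPM against 58.8, 56.6 and 79.4 CPM (0.39 ± 0.23), and cytochrome c itself, Cycs, stood at 1.11 to 4.36 CPM (0.63 ± 0.63). Copies were searched for members only, so whether reads of Cycs were lost to copies was not tested. In the TCA cycle (13 tested, median 0.04, all 13 intervals within -1 to 1), malate dehydrogenase Mdh2 had 137, 128 and 151 CPM against 98.8, 81.5 and 123.003 CPM (0.45 ± 0.21, adjusted p 0.461), and citrate synthase Cs had 261, 245 and 252 CPM against 205, 183 and 233 CPM (0.29 ± 0.18). The groups overlapped for neither Mdh2 nor Cs. Rexo2, a mitochondrial exoribonuclease, had 0.45 ± 0.19, and the corepressor Nrip1 -0.36 ± 0.20, both with no overlap between groups.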

How the data were processed

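The deposited table holds raw counts (whole reads per Ensembl gene) for 15445 genes in 6 libraries. Library preparation used NuGEN's Ovation RNA-Seq System v2 kit, per the labels' protocols. The submitters' processing notes name Novoalign, DESeq2, mm10 and hg19 without their roles. Which tool counted, with which strand setting, and what became of multiply matching reads is not given in the sources used here. No row total is below 10. Of the identifiers, 15169 matched GENCODE M21 (GRCm38, the assembly of mm10) and 276 did not.

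Counts of all genes were fitted in edgeR 4.0.16 (R 4.3.3) by quasi-likelihood F tests with TMM factors, filterByExpr (minimum count 10, minimum total 15, leaving 12987 genes), group as the only term and Benjamini-Hochberg adjustment, with calls at 0.05. SE was taken as the absolute log2 fold change divided by the root of F. Length is the union of annotated exons. Copies were found by exact 50-base matches to GENCODE transcripts and by BLAST+ 2.17.0. The fit was tested on simulated data. These were drawn with the spread of the block fit and without differences between numbered pairs. The simulation therefore does not cover the pair spread of the real libraries.

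Over the 2000 most variable genes, deviations of same-numbered libraries correlated at 0.468, 0.312 and 0.239, all above 0.1, so the numbers were taken to pair libraries on the basis of the data, without a label that says so. Differently numbered libraries correlated at -0.378 to 0.187, so the pairing is clear for libraries 1 only. Within each group, libraries differed by more than sampling noise.

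The members and gene lists were chosen with earlier results of these data known. Named genes are the 13 mitochondrial genes, members called in either fit, the 2 nuclear genes of smallest p in each direction and the most abundant one per complex, isoform pairs, called genes or the 2 of smallest p of each further list, and Il2ra. Nuclear genes named beyond these (Sdha, Sdhb, Sdhc, Atp5a1, Atp5c1, Atp5g1 to Atp5g3, Atp5l, Atp5o, Atp5s, Ndufa11, Ndufaf4) and the marker genes given with values were chosen after their values were seen, as subunits of interest, by level, call or motif. Alternatives were DESeq2 1.42.0, limma 3.58.1 (voom), other scaling factors, library sizes without mitochondrial genes, other filters, the replicate block and leaving out each library. The result of 1 marker list is not reported here.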

Additional observations from a re-analysis of the deposited data

How the results depend on the processing

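Calls among nuclear members were 0 under each alternative run, and among mitochondrial members 0 except with the replicate block (2, and 0 to 3 with 1 pair left out). Over all genes, 85 were called, against 376 by DESeq2, 601 with the replicate block, 461, 486 and 536 with the block and pair 1, 2 or 3 left out, and 22 to 130 with 1 library left out. The median log2 fold change of nuclear members was -0.21 to 0.16 with the block and 1 pair left out and -0.19 to 0.06 with 1 library left out, and that of mitochondrial members 0.12 to 0.60 with 1 library left out. The ratio of mitochondrial to nuclear counts (CD25-high and CD25-low means) was 1.91 and 1.502 without members of either kind that share exonic bases with another gene, 10.3 and 7.35 without Atp5b, and 5.07 and 4.32 without mt-Nd1 and mt-Nd2, the last 2 settings being chosen after the data were seen. In the first setting only mt-Cytb and mt-Nd3 remained on the mitochondrial side, so it does not speak for the whole mitochondrial sum. The other mitochondrial members with a row share 2 to 14 exonic bases with a neighbour. Shares of counts without mitochondrial ribosomal RNA were 4.82% and 3.84% for mitochondrial and 0.753% and 0.737% for nuclear members. Over 54 named genes and their alternatives, 928 of 972 values kept direction and side of the threshold, 12 became called and 32 changed sign, none of the 32 past the threshold. Cox4i1 was -0.041 with limma voom, -0.032 with the replicate block, and -0.17 and -0.18 with the block and pair 2 or 3 left out. With the block and pair 1 left out, the log2 fold change was 0.48 for Sdhaf4, 0.067 for Uqcr10, 0.12 for Uqcrh, 0.31 for Cox6a1, 0.23 for Atp5e, 0.27 for Ndufa4, 0.097 for Cox6b1 and 0.14 for Cox7b. With the block and pair 2 left out it was -0.022 for mt-Co1, -0.10 for Cox5a, -0.20 for Cox7a2 and -0.22 for Cox8a. With 1 library left out and no block it ranged from -0.29 to 0.34 for Cox4i1, -0.88 to 0.20 for Sdhaf4, -0.32 to 0.033 for Uqcrh, -0.20 to 0.25 for Cox6a1, -0.45 to 0.12 for Ndufa4, -0.48 to 0.13 for Cox6b1, -0.27 to 0.021 for Cox7b, -0.067 to 0.33 for Cox5a, -0.11 to 0.34 for Cox7a2, -0.14 to 0.19 for Cox8a, -0.011 to 0.51 for Ecsit and -0.019 to 1.47 for Cox19. The cause of these changes was not tested. With the block and all pairs, the genes named here that became called were mt-Nd1, mt-Nd2, Tbrg4, Pprc1, Cd3d, Cd3g, Itgam, Klrk1 and 3 transfer RNA genes. With the block, Cox10 was called as well without pair 1 (edgeR adjusted p 0.0488), and mt-Cytb (0.019) and Mterf2 (0.0351) without pair 3. Genes with few reads, such as Cox6b2, Cox8b and Atp5g2, were not tested, and for mt-Nd3, at 2.55 to 7.09 CPM, the SE was 0.47.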

Other observations

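The transfer RNA genes of mitochondrial DNA, examined after their values were seen, lay on the same side as the mitochondrial encoded subunits. Of 22 annotated genes, 18 had a row and 17 were tested. All 17 had a log2 fold change above 0, with a median of 0.80, and 0 were called by edgeR without the replicate block (4 at an unadjusted p under 0.05, and 0 by DESeq2). With the block 3 were called, where 1.73% of all tested genes were called as higher. Mt-Tm, the methionine transfer RNA, had 73.3, 19.8 and 20.0 CPM in CD25-high and 22.2, 9.84 and 11.2 CPM in CD25-low libraries (1.39 ± 0.53, edgeR adjusted p 0.0166 with the block). Mt-Tq had 48.5, 11.8 and 10.8 CPM against 12.2, 5.62 and 6.29 CPM (1.56 ± 0.58, 0.0344 with the block), and mt-Tl1 had 466, 170 and 148 CPM against 221, 101 and 127 CPM (0.80 ± 0.43, 0.046 with the block). CD25-high 1 was the highest library for all of them, as it was for mt-Nd1 and mt-Nd2. On chromosome M, mt-Tl1 (2676 to 2750) ends just before mt-Nd1 starts at 2751, and mt-Tq (3772 to 3842) and mt-Tm (3845 to 3913) lie between mt-Nd1 and mt-Nd2. These 3 genes are 75, 71 and 69 bases long. Whether their reads came from transfer RNAs or from longer precursors that hold mt-Nd1 or mt-Nd2 was not tested. The calls may therefore not be separate from those of mt-Nd1 and mt-Nd2.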
